A study of Arabidopsis thaliana with 6 samples.

Results

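The introns described here are those of Arabidopsis genes for which the deposited intron table lists 20 or more introns. An intron was kept if it was at least 76 and under 500 bases long and if its read depth plus that of its neighbouring exons reached 10 in each of the 6 libraries. The rule left 10543 introns in 449 genes, of 94773 introns of any length that passed the same depth and of 105206 introns listed in all. The rule uses the number of introns, their length and their summed depth, and not the difference between genotypes. A gene held 3 to 69 of these introns, with a median of 22. The gene with the longest list, ATM, had 77 introns, and 92 genes just missed the limit with 19. The lowest depths kept were 10.01, 10.01 and 10.02, and the nearest left out were 9.76, 9.77 and 9.9. At the length limit 155 introns had exactly 76 bases.

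Rosette leaves were the source of the poly(A) RNA, taken from the mac3a/mac3b double mutant and from Col-0, the wild-type background, with 3 sequenced libraries each. The plants were 40 days old and vegetative, and had been grown in soil with 8 h of light and 16 h of darkness at 22 °C. The labels name neither the alleles nor the number of plants behind a library. They also do not say whether replicates came from separate plants, so p-values measure the spread between these libraries, which may be technical.

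MAC3A and MAC3B are closely related U-box proteins, the plant counterparts of the yeast splicing factor Prp19, and belong to a complex that joins the spliceosome. The spliceosome recognises a GT at the start and an AG at the end of nearly every intron and removes the intron while RNA polymerase is often still transcribing the gene. An intron that is not removed before the RNA is made into a poly(A) transcript is called retained. Genes with many introns encode mostly large proteins, such as DNA polymerases, myosins, callose synthases and kinases of the TOR and ATM type, and their transcripts need many splicing events each.

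The sequences of 7 introns are shown as the genome has them, because these introns are described one by one below. The first 4 are among the largest rises in the mutant, the next is the largest fall, and the last 2 are the first and the last intron of XRN2, a gene in which the rise grew along the gene. Each is written 5′ to 3′ in the sense of the gene, from TAIR10.1, with the first 6 and the last 3 bases in capitals to mark the splice sites. All 7 lie within the coding span of their gene.
RECQ4B intron 24 (chr1:22431286-22431384, minus strand): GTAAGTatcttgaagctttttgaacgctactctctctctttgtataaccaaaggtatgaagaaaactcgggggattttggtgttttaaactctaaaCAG
CTF18 intron 15 (chr1:1326968-1327043, minus strand): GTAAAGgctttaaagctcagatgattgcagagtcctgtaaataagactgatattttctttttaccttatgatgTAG
ABCC11 intron 12 (chr1:10751445-10751551, plus strand): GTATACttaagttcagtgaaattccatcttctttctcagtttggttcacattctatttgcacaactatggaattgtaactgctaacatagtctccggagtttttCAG
HGL1 intron 15 (chr3:8506350-8506456, plus strand): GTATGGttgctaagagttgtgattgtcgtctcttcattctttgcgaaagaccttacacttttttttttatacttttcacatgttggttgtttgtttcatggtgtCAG
INO80 intron 16 (chr3:21204626-21204786, plus strand): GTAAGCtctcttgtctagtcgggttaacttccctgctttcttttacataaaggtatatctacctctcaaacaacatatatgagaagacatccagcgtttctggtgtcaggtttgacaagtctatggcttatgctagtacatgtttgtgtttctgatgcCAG
XRN2 intron 1 (chr5:17007826-17007924, plus strand): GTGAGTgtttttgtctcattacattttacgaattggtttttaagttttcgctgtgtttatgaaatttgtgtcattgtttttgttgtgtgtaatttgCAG
XRN2 intron 21 (chr5:17013895-17013990, plus strand): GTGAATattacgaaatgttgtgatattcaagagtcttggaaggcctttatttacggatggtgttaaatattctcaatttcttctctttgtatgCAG

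The libraries held 80626787 to 108909613 unique reads over 13069 genes. MAC3A was at 7.03 ± 1.60 RPKM in the mutant and 19.6 ± 2.68 RPKM in Col-0, and MAC3B at 7.41 ± 1.68 RPKM in the mutant and 40.3 ± 7.55 RPKM in Col-0 (SD, n = 3 each), which goes with the labels. With 17 and 18 listed introns, neither gene is among the 449. Transcripts of leaf photosynthesis genes were at 2236 to 21007 RPKM, and the floral genes AP1, AP3 and PI at no more than 0.08 RPKM in any library. AG, a floral organ gene, was at 1.01, 1.00 and 1.05 RPKM in the mutant and 0.64, 0.32 and 0.48 RPKM in Col-0.

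Retention of these introns was higher in the mutant and low in both genotypes. Retention is given as intron depth in percent of intron plus exon depth. The median intron was retained at 0.484%, 0.467% and 0.627% in the mutant libraries, against 0.0395%, 0.0343% and 0.0292% in the Col-0 libraries. All mutant libraries were above all Col-0 libraries, with means of 0.526 ± 0.0879% and 0.0344 ± 0.00514% (SD, n = 3 each, exact permutation test, two-sided, p = 0.1, the smallest that 3 against 3 libraries allow). Summed over all these introns, retention was 1.24 ± 0.167% in the mutant and 0.414 ± 0.0562% in Col-0, so the ratio depends on the summary, while the order of the libraries did not. Introns with no read at all made up 8.04 ± 0.693% in the mutant and 13.4 ± 1.12% in Col-0. Introns retained at 5% or more made up 6.05 ± 1.88% in the mutant and 1.88 ± 0.256% in Col-0. The Col-0 median lies at the edge of what the depth can show, since the median intron carried 20.98 ± 3.55 read bases there, against 243 ± 31.6 in the mutant.

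Retention was lower than in genes with fewer introns, in both genotypes. Introns of the same length and depth in genes with fewer than 20 (74457 introns) were retained at a median of 1.74 ± 0.0976% in the mutant and 0.225 ± 0.0543% in Col-0. Genes with 10 to 19 introns were in between, at 1.18 ± 0.115% in the mutant and 0.113 ± 0.0345% in Col-0. Genes with 1 to 9 introns had the highest medians, 2.27 ± 0.0941% in the mutant and 0.346 ± 0.0773% in Col-0. Genes with 20 or more were below those with fewer in all 6 libraries (exact sign-flip test over the libraries, two-sided, p = 0.0313, the smallest that 6 allow; the libraries share the introns, so it covers library spread only). The difference was −1.21 ± 0.0382 points in the mutant and −0.190 ± 0.0492 points in Col-0 (exact permutation test of the difference between genotypes, p = 0.1). On a ratio scale the Col-0 gap was the larger, with a log2 ratio of −1.73 ± 0.16 in the mutant and −2.69 ± 0.15 in Col-0 (SD, n = 3 each). The Col-0 ratio rests on the median of 0.0344%, which lies at the edge of what the depth can show.

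**Figure D1:**
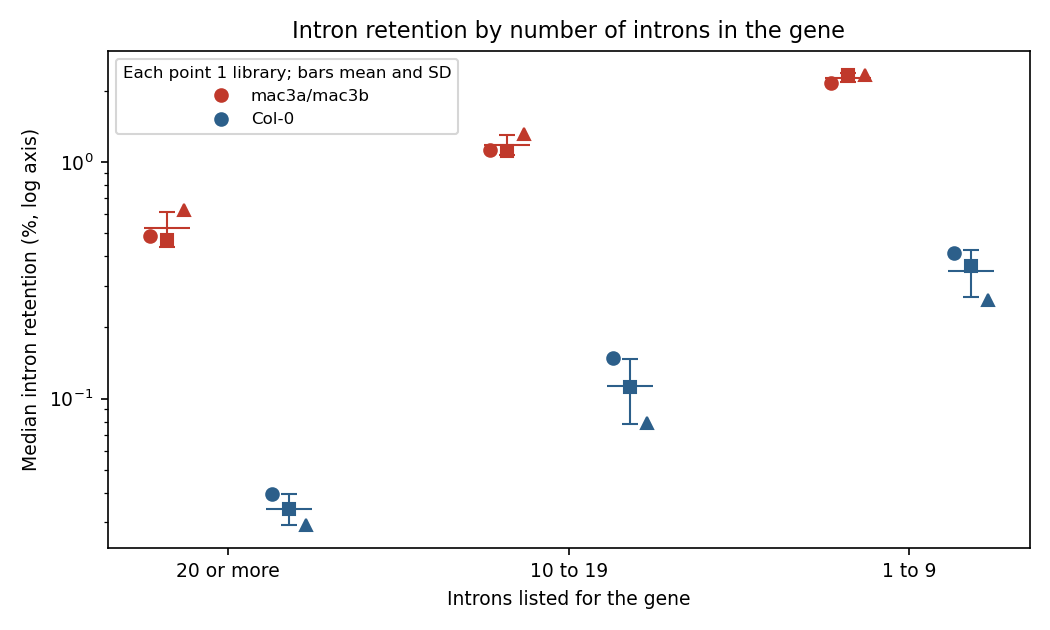
Median intron retention in percent on a log axis, by the number of introns listed for the gene, with 1 point per library, mac3a/mac3b left of Col-0, and bars for the mean and SD of 3 libraries. Genes with 20 or more introns have the lowest medians in both genotypes, 0.526% in mac3a/mac3b and 0.0344% in Col-0, and genes with 1 to 9 the highest.

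The mutant gap was there in each range of length and depth. Median exon depth was 337 ± 66.5 in the mutant and 436 ± 60.1 in Col-0 for the introns of long lists, close to 379 ± 55.0 in the mutant and 458 ± 27.1 in Col-0 for the others. Among introns of 76 to 90 bases the mutant median was 0.586% for genes with 20 or more and 1.86% for those with fewer. Among introns over 200 bases it was 0.555% and 1.77%. Where exon depth was 100 or more, the mutant medians were 0.547% and 1.66%. In weakly covered genes the mutant medians lay further apart, at 0.0744 ± 0.0232% for 301 introns of genes with 20 or more at exon depths of 20 to 50, and 2.91 ± 0.210% for the 3428 others. The corresponding Col-0 medians were 0 in all 3 libraries for genes with 20 or more and 0.0309 ± 0.0364% for the others.

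Tested intron by intron, 5060 of the 10543 (48.0%) rose in the mutant, against 62.3% of all introns tested (limma adjusted p under 0.05 on the log2 ratio of intron to exon depth, with a pseudocount of 0.5, adjusted over all 94773). The introns that rose lay in 443 of the 449 genes, beside 12310 of 14262 genes with fewer than 20, which hold fewer introns each. The median log2 change was 1.46, beside 1.83 over all introns, and the median difference in retention 0.462 points, beside 1.25 points. Rises of 5 points or more were called in 179 introns of 130 genes (1.7%, beside 7.38% of all introns), and rises of 10 points or more in 25 introns of 20 genes (0.237%, beside 1.3%). Every mutant library was above every Col-0 library in 5031 introns (47.7%, beside 65.5%) and below in 63 (0.598%, beside 0.3%). In the authors' deposited table, 88 of these introns (0.835%) had an adjusted value under 0.05 as enhanced and 0 as reduced, beside 2.18% and 0.00106% of all introns. None of the largest rises and falls described below is among the 88, and the authors' adjusted values for them were 0.0555 to 0.276.

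Many of these introns carry so few reads that the pseudocount lets exon depth move the ratio. On a scale chosen after seeing the data, the log2 of retention plus 0.1 points, which exon depth does not move in this way, 3982 introns rose (37.8%, beside 55.5% of all introns) and 10 fell (0.0948%, beside 0.0454%). Of the 5060 called above, 3906 were called on this scale too, and in 4376 the genotypes did not overlap.

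By the median intron, retention was higher towards the 3′ end of the genes in all 6 libraries, and the gain in points was larger in the 3 mutant libraries. The introns of each gene, numbered from the 5′ end, were divided into 3 equal stretches, called the 5′, the middle and the 3′ part. The median intron of the 5′ part was retained at 0.230% in the mutant and 0.0212% in Col-0. In the middle part the medians were 0.455% and 0.0294%, and in the 3′ part 0.961% and 0.0828%. The mutant median was 10.9 times that of Col-0 in the 5′ part, 15.5 times in the middle part and 11.6 times in the 3′ part. As a ratio of these medians, the genotype difference thus did not climb steadily along the gene. Divided into 10 stretches, the mutant median was 0.166 ± 0.0512% in the stretch nearest the 5′ end and 1.27 ± 0.152% in the one nearest the 3′ end, and the Col-0 median 0.0202 ± 0.00254% and 0.136 ± 0.0513% (SD, n = 3 each). The Col-0 medians rest on few reads, with 11.1 read bases in the median intron of the 5′ part and 65.7 in the 3′ part. Summed over introns, Col-0 retention was 0.390%, 0.337% and 0.487% in the 5′, middle and 3′ parts. In the mutant the summed values were 0.928%, 1.11% and 1.56%. The share of introns called higher was 31.9% in the 5′ part, 46.8% in the middle part and 64.8% in the 3′ part. In genes with 10 to 19 introns it was 49.5%, 63.1% and 69.2%, so a climb along the gene was not particular to this set. Exon depth was not held equal between the parts in these shares. For the set, its median in the mutant libraries was 246, 347 and 259 in the 5′ part and 383, 495 and 342 in the 3′ part. What part depth has in the shares was not tested.

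**Figure D2:**
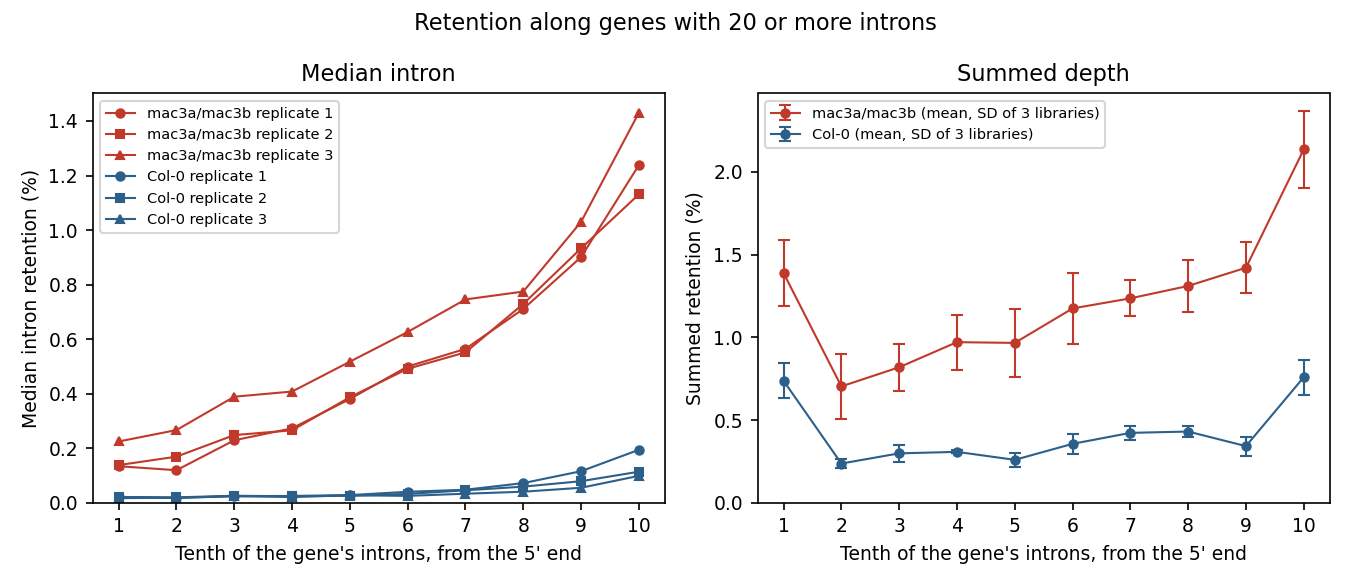
Retention in percent over 10 equal stretches of the introns of a gene, counted from the 5′ end: the median intron of each library on the left and summed depth on the right, where points are means and bars the SD of 3 libraries. The mutant median climbs in each library from the second stretch on, while the summed values of both genotypes are high again in the first stretch, at 1.39% in mac3a/mac3b and 0.738% in Col-0.

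The last intron was retained at 1.67 ± 0.162% in the mutant and 0.214 ± 0.0717% in Col-0, and the one before it at 1.18 ± 0.149% in the mutant and 0.119 ± 0.0427% in Col-0. Introns more than 30 places from the 3′ end had medians of 0.0534 ± 0.0328% in the mutant and 0.0128 ± 0.00129% in Col-0. These were 654 introns of 78 genes, all with more than 30 introns, while the last intron was measured in 406 genes. The comparison thus mixes position with a difference in genes. The very first intron was above the one that follows, at 0.312 ± 0.103% in the mutant and 0.0480 ± 0.00679% in Col-0 for intron 1, against 0.142 ± 0.0242% in the mutant and 0.0164 ± 0.00247% in Col-0 for intron 2. First introns were longer, with a median of 171.5 bases against 107 for the second, and whether length plays a part there was not tested.

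The gene classes were also compared at each end. Over the first 5 introns, genes with 20 or more had a mutant median of 0.214% and a Col-0 median of 0.0206%, against 0.788% and 0.0607% in genes with 10 to 19 and 1.77% and 0.227% in genes with 5 to 9. Over the last 5 introns the medians were 1.16% in the mutant and 0.118% in Col-0, against 1.72% and 0.212% in genes with 10 to 19 and 2.12% and 0.298% in genes with 5 to 9. In genes with 5 to 9 introns the first 5 and the last 5 are partly the same introns.

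Within genes, the 3′ part of introns was compared with the 5′ part in the 440 genes with at least 3 introns in each. The median gene gained 0.660 ± 0.0133 points of retention from the 5′ to the 3′ part in the mutant and 0.100 ± 0.0279 points in Col-0 (SD, n = 3 each, exact permutation test, p = 0.1). On the log2 scale the gain was 0.94, 1.04 and 0.84 in the mutant libraries and 0.07, 0.21 and 0.03 in the Col-0 libraries. The mutant libraries were all above the Col-0 libraries, with a difference of 0.84 (exact permutation test, p = 0.1). The Col-0 gain on this scale depends on the pseudocount, being 0.71 at a pseudocount of 0.05 and −0.07 at 1, while the difference between genotypes was 0.73 to 0.99 at these pseudocounts. In genes with 30 or more introns the Col-0 gain was below 0 in all 3 libraries, at −0.15 ± 0.08, and the mutant gain 0.87 ± 0.09. Genes in which the 3′ part was above the 5′ part by points made up 76.4% in the mutant and 65.7% in Col-0. Genes with 10 to 19 introns gained 0.805 ± 0.0575 points in the mutant and 0.146 ± 0.0306 points in Col-0.

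Exon depth was higher towards the 3′ end as well, by a median log2 of 0.50 ± 0.13 in the mutant and 0.53 ± 0.17 in Col-0 (exact permutation test, p = 0.9), in 94.9% and 95.5% of the genes. The part of this coverage slope in the gain of retention was not tested beyond 13 genes whose exon depth was not higher in the 3′ part. In those the gain of retention was 1.18 ± 0.148 points in the mutant and 0.319 ± 0.0475 points in Col-0. On the log2 scale it was 1.76 ± 0.21 in the mutant and 1.37 ± 0.11 in Col-0, a difference of 0.40 beside 0.84 over all 440 genes. The share called also differed between the parts within ranges of length. Among introns of 76 to 90 bases 32.4% were called higher in the 5′ part and 67.0% in the 3′ part, and among those over 200 bases 36.1% and 67.8%.

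Gene by gene, the change in the mutant was larger in the 3′ part than in the 5′ part in 87 of 440 genes (19.8%, beside 14.9% of all 3520 genes tested; limma adjusted p under 0.05) and smaller in 0, beside 1.68%, with 1 at an unadjusted p under 0.05. This count rested on every library. It was 38, 44 and 47 without mutant replicate 1, 2 or 3, and 33, 40 and 42 without Col-0 replicate 1, 2 or 3. On the scale of retention plus 0.1 points it was 19 (4.32%, beside 3.64%), 16 of them among the 87, and with a pseudocount of 0.05 it was 5. With the pseudocount of 0.5, 409 of the 440 genes (93.0%) had a larger change in the 3′ part, called or not. The median position change was 0.78 (log2), beside 0.53 over all 3520 genes. The share of all genes with a larger change in the 3′ part, and that share on the other scales, are not given here.

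XRN2 (AT5G42540), a nuclear 5′-to-3′ exoribonuclease, had 11 of 20 introns called higher. Its first 7 introns averaged 0.0603%, 0.138% and 0.214% in the mutant libraries and 0.0790%, 0.0323% and 0.0597% in the Col-0 libraries, so the genotypes overlapped there. Its last 7 introns averaged 1.67%, 1.87% and 2.41% in the mutant and 0.527%, 0.186% and 0.208% in Col-0, without overlap. The change was larger at the 3′ end by a log2 of 2.26 (SE 0.46, limma adjusted p = 0.00755). Its first and last intron, shown above, were at 0.0594% and 0.749% in the mutant and 0.0111% and 0.104% in Col-0.

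GSL04 (AT3G14570), a glucan synthase of the callose synthase family, averaged 0.265 ± 0.0689% over 12 introns of its 5′ part in the mutant and 0.152 ± 0.0627% in Col-0. Over the 14 introns of its 3′ part it averaged 3.34 ± 0.516% in the mutant and 0.607 ± 0.178% in Col-0 (SD, n = 3 each), a difference in change of 2.23 (log2, SE 0.40, limma adjusted p = 0.00483). XIK (AT5G20490), a class XI myosin that moves organelles along actin, averaged 0.635 ± 0.131% in its 3′ part in the mutant and 0.0439 ± 0.0159% in Col-0. In its 5′ part the values were 0.294 ± 0.129% in the mutant and 0.125 ± 0.0643% in Col-0 (log2 1.84, SE 0.39, limma adjusted p = 0.00858). PKL (AT2G25170), a CHD3-type chromatin remodeller, averaged 0.800 ± 0.108% in its 5′ part in the mutant, beside 0.901 ± 0.201% in Col-0, and 1.49 ± 0.169% in its 3′ part in the mutant, beside 0.445 ± 0.131% in Col-0 (log2 1.71, SE 0.39, limma adjusted p = 0.0112). These 4 genes kept their call on the scale of retention plus 0.1 points and without any 1 library. With a pseudocount of 0.05, GSL04 and XIK kept it and XRN2 and PKL did not (limma adjusted p = 0.0641 for both).

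**Figure D3:**
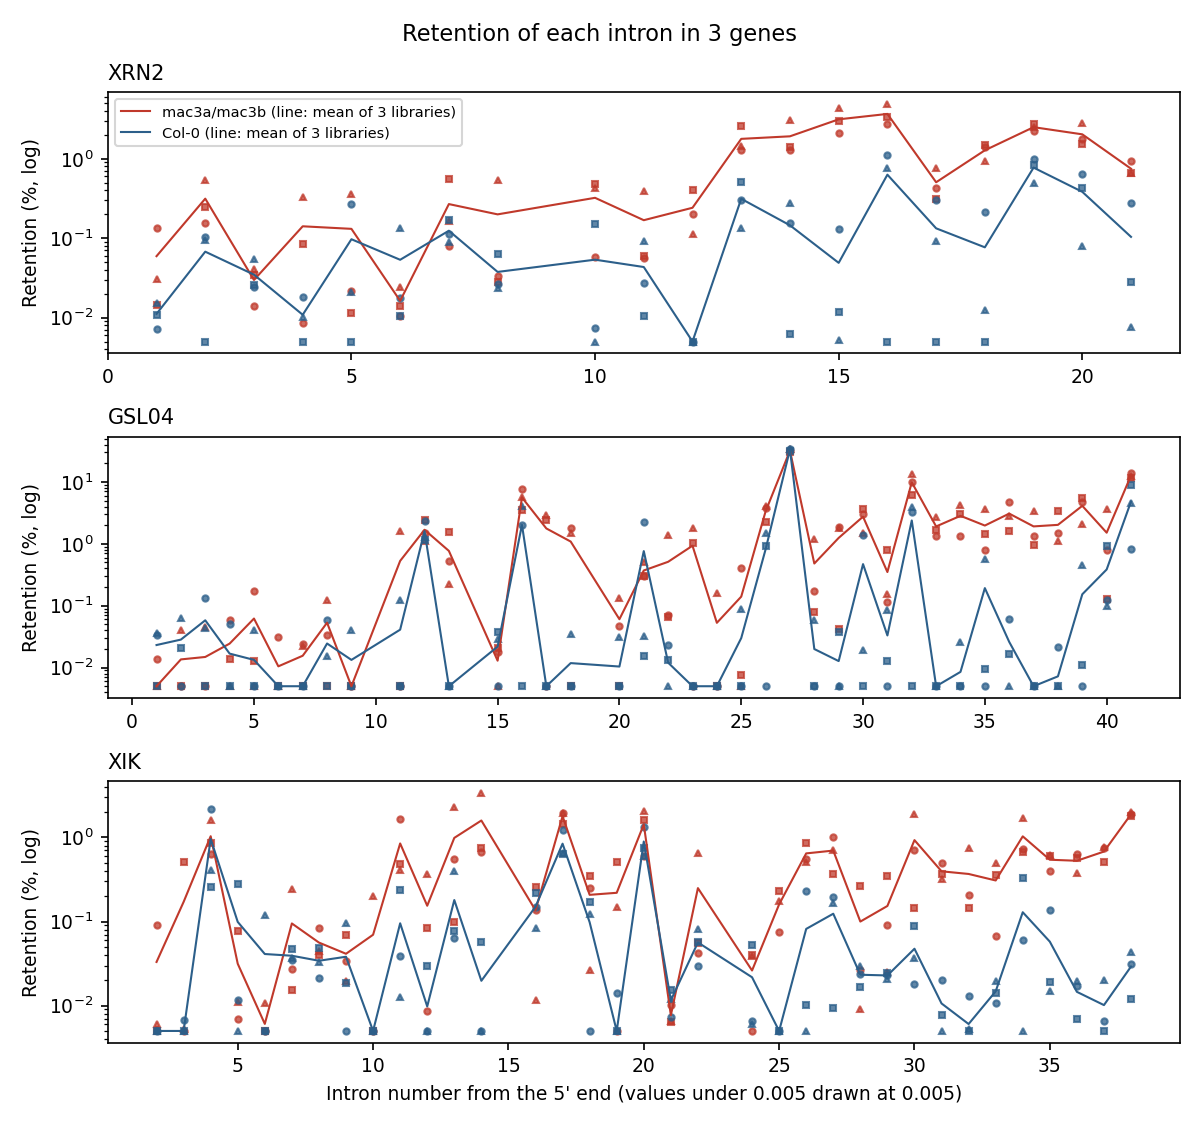
Retention in percent on a log axis for each measured intron of XRN2, GSL04 and XIK, numbered from the 5′ end, with 1 point per library and lines for the mean of 3 libraries. In XRN2 the genotypes overlap in most introns before number 12 and separate from intron 12 on.

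ACC1, the cytosolic acetyl-CoA carboxylase, and AT3G23530 also had a larger change in the 3′ part (limma adjusted p = 0.00858 and 0.00567), both called without any 1 library but not on the scale of retention plus 0.1 points (0.0535 and 0.0530). TOR, the growth kinase with 55 listed introns, was called at 1.35 (limma adjusted p = 0.0301), and lost that call without each mutant replicate and without Col-0 replicate 1 or 2 (0.056 to 0.107). UBP12, a deubiquitinase, was called at 1.57 (limma adjusted p = 0.0166), and lost it without Col-0 replicate 1 (0.0647), on the scale of retention plus 0.1 points (0.0541) and with a pseudocount of 0.05 (0.116). TOR lost it on these scales too (0.0551 and 0.0832). At the other end, PSD2 (−1.09), TAF2 (−0.71), TOP3A (−0.63) and AT1G53430 (−0.61) had the lowest log2 values, none of them called.

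The largest rise in points was in intron 9 of VLN4 (AT4G30160), which encodes the actin-bundling protein villin 4. It was retained at 26.7%, 27.5% and 24.6% in the mutant libraries, against 3.29%, 3.93% and 2.62% in the Col-0 libraries, with no overlap (log2 3.38, SE 0.39, limma adjusted p = 0.000977). The intron could not be placed on the annotation, and the exon depth beside it was also higher in the mutant, at 1643 to 2760 against 549 to 902 in Col-0. Intron 2 of DCL2, a Dicer enzyme that cuts double-stranded RNA, lies outside the coding span and was at 34.8%, 21.2% and 29.8% in the mutant and 6.49%, 6.82% and 14.9% in Col-0 (limma adjusted p = 0.0118). Coverage was thin there, with exon depths of 15.7, 84.8 and 25.5 in the mutant and 29.2, 126 and 45.4 in Col-0.

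RECQ4B intron 24, the last intron of a gene for a RecQ-type DNA helicase, was at 18.3%, 12.7% and 24.6% in the mutant, against 6.96%, 0.515% and 2.84% in Col-0. Exon depth beside it was only 18.6 to 28.9 in the mutant and 26.4 to 55.0 in Col-0. CTF18 intron 15, in a gene for a subunit of a clamp loader that acts in sister chromatid cohesion, was at 14.8%, 15.4% and 14.8% in the mutant, against 2.83%, 0.0265% and 0 in Col-0 (limma adjusted p = 0.00158). The mutant libraries were nearly equal there and the Col-0 libraries were not. HGL1 intron 15, in a gene for a glycan-degrading enzyme, was at 15.1%, 14.95% and 7.87% in the mutant, against 1.69%, 1.35% and 0.716% in Col-0 (limma adjusted p = 0.00147). ABCC11 intron 12, in an ABC transporter gene, was at 23.1%, 11.1% and 9.33% in the mutant, against 1.52%, 1.05% and 1.88% in Col-0 (limma adjusted p = 0.00189), where mutant exon depth was 12.5 to 51.8 against 105 to 123 in Col-0. These calls and those of VLN4, DCL2 and RECQ4B held in each fit without 1 library and on the scale of retention plus 0.1 points.

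Intron 34 of SYD, a SWI/SNF chromatin remodeller, was at 16.4%, 11.7% and 27.9% in the mutant, against 8.12%, 4.75% and 5.71% in Col-0 (limma adjusted p = 0.0186). It lost the call without mutant replicate 3 (0.0542), Col-0 replicate 2 (0.0591) or Col-0 replicate 3 (0.0509). AT1G62130 intron 5 was at 28.8%, 28.1% and 22.4% in the mutant, against 19.8%, 6.51% and 12.2% in Col-0 (limma adjusted p = 0.0466), and lost the call in 5 of the 6 fits without 1 library, all but that without Col-0 replicate 1 (0.0653 to 0.148).

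The ratio of intron to exon depth was called lower in 11 introns of 6 genes (0.104%, beside 0.0538% of all introns). Mean retention was lower in the mutant in 6 of the 11 and higher in 5, and 3 of the 11 were also called lower on the scale of retention plus 0.1 points. INO80 intron 16 had the largest difference in retention, in the gene of a chromatin remodelling ATPase. It was retained at 3.40%, 5.47% and 3.26% in the mutant, against 10.5%, 17.1% and 12.7% in Col-0, with no overlap (log2 −1.84, SE 0.43, limma adjusted p = 0.00763). The call held in each fit without 1 library and on the scale of retention plus 0.1 points. At 161 bases, this intron is longer than the median of 105.

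The other calls rested on less. AT5G41690 intron 12 was at 1.98%, 2.79% and 0.0399% in the mutant, against 7.06%, 4.22% and 8.68% in Col-0 (limma adjusted p = 0.0274), and lost the call without mutant replicate 3 (0.0756), Col-0 replicate 1 (0.0676) or Col-0 replicate 3 (0.0858), and on the scale of retention plus 0.1 points (0.0867). XIH intron 22 and EMB3142 intron 14 were under 0.5% in every library and lost the call in all 6 fits without 1 library. ESP intron 15 had reads in 1 Col-0 library and in none of the others. The other 6 were in GMI1 (AT5G24280), a gene known to be induced by DNA damage, where retention itself was not lower: its mean was higher in the mutant in 5 of the 6 introns, and the median intron of the gene was at 0.0336%, 0.427% and 1.04% in the mutant and at 0 in all 3 Col-0 libraries. Intron depth was at most 0.39 in every library there, while the exon depth beside those introns was 29.4 to 172 in the mutant and 10.5 to 43.6 in Col-0, and what part exon depth has in the lower ratio was not tested. The count of 11 was 4 without mutant replicate 1, 4 without Col-0 replicate 1 and 7 without Col-0 replicate 3.

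**Figure D4:**
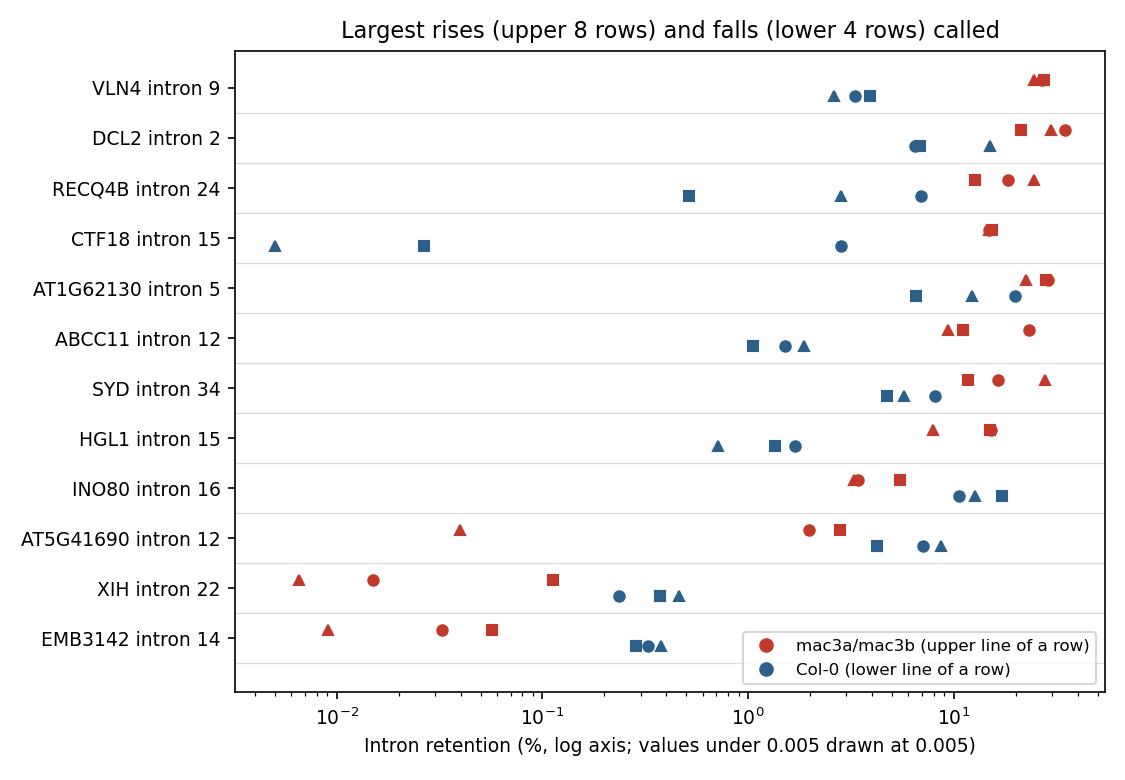
Retention in percent on a log axis for the 8 largest rises and the 4 largest falls among called introns without overlap, with 1 point per library and mac3a/mac3b above Col-0 in each row. The mutant points of CTF18 intron 15 lie at 14.8% to 15.4%, and those of INO80 intron 16 at 3.26% to 5.47%, below the Col-0 points of 10.5% to 17.1%.

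Averaged over its introns, the ratio rose in 416 of 449 genes (92.7%, beside 94.5% of all 10236 genes tested; limma adjusted p under 0.05), and fell in 0, with 0 at an unadjusted p under 0.05 as well. In 4 other fits 1 gene, GMI1, was called lower: without mutant replicate 3 (limma adjusted p = 0.0095), without Col-0 replicate 2 (0.0361), with a pseudocount of 1 (0.0244) and with no depth minimum (0.0232). The median gene changed by 1.58 on the log2 scale, beside 1.94 over all genes. On the scale of retention plus 0.1 points 440 genes rose (98.0%, beside 95.2%), 413 of the 416 among them. Genes differed among themselves, in that 28.9% of the variance of the log2 ratio in the mutant, 40.2% in Col-0 and 22.9% of that of the change lay between genes. All measured introns were called higher in 2 genes, and none in 6. Such counts depend on how many introns a gene holds, and those of genes with fewer introns are not given here.

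The largest gene mean was that of P5CS1 (AT2G39800), the rate-limiting enzyme of proline synthesis, in which 19 of 19 introns rose. Its median intron was at 3.79%, 2.08% and 2.77% in the mutant libraries, against 0.202%, 0.283% and 0.100% in the Col-0 libraries (log2 3.87, SE 0.34, limma adjusted p = 1.55e-05). Next came ISA3 and ACA8, with 19 of 21 and 30 of 34 introns called higher and a log2 of 2.95 each. On the scale of retention plus 0.1 points P5CS1 was at 3.21, ISA3 at 1.96 and ACA8 at 1.77, and AT1G53430, at 2.54, came after P5CS1. ISA3 is a starch debranching enzyme and ACA8 a calcium pump of the plasma membrane. The ACA8 median was 0.637 ± 0.0566% in the mutant and 0.0549 ± 0.0162% in Col-0 (SD, n = 3 each). At the low end, GMI1 (−0.91), VIIIB (−0.11), VLN1 (0.28), AT5G49390 (0.35) and VLN4 (0.38) were not called, although VLN4 holds the intron with the largest rise. All 5 were called higher on the scale of retention plus 0.1 points, at 1.53, 0.92, 0.77, 1.36 and 0.69 (limma adjusted p = 0.00533 to 0.0132).

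Of the 5 genes with the most introns, all but AT4G17140 had a smaller share called than the 48.0% of the whole set. ATM, the kinase that responds to DNA double-strand breaks, had 14 of 69 called higher, with a median of 0.0849%, 0.0848% and 0.203% in the mutant and 0.0195%, 0.0158% and 0.0153% in Col-0. Its gene mean rose by 1.01 (limma adjusted p = 0.0109; 0.0546 without Col-0 replicate 2). AT1G67120 had 7 of 64 called, AT1G48090 14 of 58 and ILA 15 of 56. AT4G17140 had 41 of 56 called, and its exon depth was 203 in the mutant and 583 in Col-0.

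Among 3 genes of DNA polymerases, helicases and repair kinases, 23 of 137 introns rose (16.8%), and the median log2 change was 0.67, beside 62.3% and 1.83 over all introns. Besides ATM these were TIL1, the catalytic subunit of DNA polymerase epsilon, with 5 of 40, and ICU2, that of polymerase alpha, with 4 of 28. AT5G63960, AT4G32700 and AT1G79950, listed as POLD1, TEB and RTEL1, also hold introns of the set. They were dropped because the annotation does not give these symbols, so the share covers only part of the list. Their gene means (log2) were 1.32, 1.13 and 1.23, above 1.01 for ATM, 0.63 for TIL1 and 0.51 for ICU2. Of the 5 chromatin remodeller and histone modifier genes 50 of 126 introns rose (39.7%) and 1 fell, the INO80 intron above. ATX2 had 13 of 24 called and ATX1, another trithorax-type methyltransferase, 4 of 21. Of 3 genes for SMC proteins, the ring-forming ATPases of cohesin, condensin and a related complex, 24 of 72 introns rose (33.3%). Median exon depth was 67.9 in the mutant and 86.1 in Col-0 for TIL1, 94.3 and 136 for ATM, and 101 and 109 for ICU2.

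The small RNA pathway had 74 of 143 introns called higher in 7 genes (51.7%, beside 48.0% of the set and 62.3% of all introns), among them 16 of 20 in AGO1, which binds microRNAs, 12 of 22 in DCL4 and 6 of 21 in DCL3. AGO1 introns had medians of 0.585%, 0.569% and 0.491% in the mutant and 0.117%, 0.0607% and 0.0371% in Col-0. In 4 genes of splicing, RNA processing and decay 52 of 90 rose (57.8%, beside the same shares), with 17 of 22 in XRN3 and 13 of 19 in XRN4, the nuclear and the cytoplasmic relative of XRN2, and 15 of 25 in CPSF160, a subunit of the poly(A) site cleavage machinery. LBA1, the nonsense-mediated decay helicase UPF1, had 7 of 24.

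Starch and nitrogen metabolism had the largest share among the lists, with 87 of 121 introns called higher in 5 genes (71.9%, beside 62.3% of all introns). The median log2 change was 2.32, beside 1.83 over all introns. On the scale of retention plus 0.1 points the share was 66 of 121 (54.5%), beside 55.5% of all introns. SEX1, the glucan water dikinase that starts starch breakdown, had 27 of 31 and SBE2.2, a starch branching enzyme, 19 of 21. DPE2, which acts on maltose in the cytosol, had 17 of 21, and GLU1, the ferredoxin-dependent glutamate synthase, 16 of 29. Coverage was deep here, with a median exon depth in SEX1 of 6183 in the mutant and 18630 in Col-0. Their median retention was not the highest, at 0.336 ± 0.118% in the mutant and 0.0466 ± 0.0101% in Col-0, beside 0.771 ± 0.0499% and 0.0439 ± 0.00588% for the small RNA pathway (SD, n = 3 each).

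Of the remaining lists, lipid and cell wall synthesis had 72 of 196 introns called higher (36.7%), the ubiquitin system 40 of 86 (46.5%), nuclear pore and export 35 of 81 (43.2%), growth signalling and membrane traffic 62 of 139 (44.6%), and myosin and kinesin motors 75 of 161 (46.6%), beside 48.0% of the set and 62.3% of all introns. RAPTOR1, the partner of TOR, had 18 of 20 and TOR 13 of 48. SWEETIE had 22 of 44, and MYA2, a class XI myosin, 25 of 38. XPO1A, a nuclear export receptor, had 19 of 28 and its copy XPO1B 11 of 28. On the scale of retention plus 0.1 points each list had fewer calls, beside 37.8% of the set and 55.5% of all introns. The range was from 10 of 137 (7.3%) for the kept genes of DNA polymerases and kinases to 66 of 121 (54.5%) for starch and nitrogen metabolism.

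No host gene passed the test for a change in RNA level. Of 438 host genes tested by limma on log2(RPKM + 1), 0 were called higher and 0 lower, beside 0.0524% of all genes each way, with 31 (7.08%) at an unadjusted p under 0.05. The share of all genes at that unadjusted p is not given here. Same-numbered libraries deviated together in expression, and with the replicate number as a block 3 genes were higher and 9 lower, beside 2.7% and 1.82%. In whole leaves, fewer cells of a type and less RNA per cell cannot be told apart. ACA8 was at 19.4 ± 8.20 RPKM in the mutant and 92.4 ± 28.9 RPKM in Col-0 (log2 −2.24, limma adjusted p = 0.136, and 0.0145 with the block). SEX1 was at 191 ± 71.0 RPKM in the mutant and 482 ± 151 RPKM in Col-0 (limma adjusted p = 0.313, and 0.032 with the block). VLN4 was at 55.5 ± 7.74 RPKM in the mutant and 15.9 ± 2.54 RPKM in Col-0 (limma adjusted p = 0.0566, and 0.0145 with the block), and P5CS1 at 105 ± 26.0 RPKM in the mutant and 54.5 ± 8.54 RPKM in Col-0 (limma adjusted p = 0.262, and 0.0364 with the block).

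Across the 438 genes, which are not independent replicates, the gene mean change and the expression change had a Pearson r of −0.38 and a Spearman rho of −0.34, and both share the exon reads of the same libraries. On the scale of retention plus 0.1 points r was 0.05 and rho 0.02. CALS1, a callose synthase, shows the difference between the scales: 24 of 42 introns were called higher and the gene mean rose by 1.61 (limma adjusted p = 0.00103), yet the median intron was at 0, 0.0197% and 0.0172% in the mutant and 0.0150%, 0.0238% and 0.0238% in Col-0. Its median exon depth was 147 in the mutant and 381 in Col-0, and on the other scale its gene mean was 0.44 (limma adjusted p = 0.12).

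**Figure D5:**
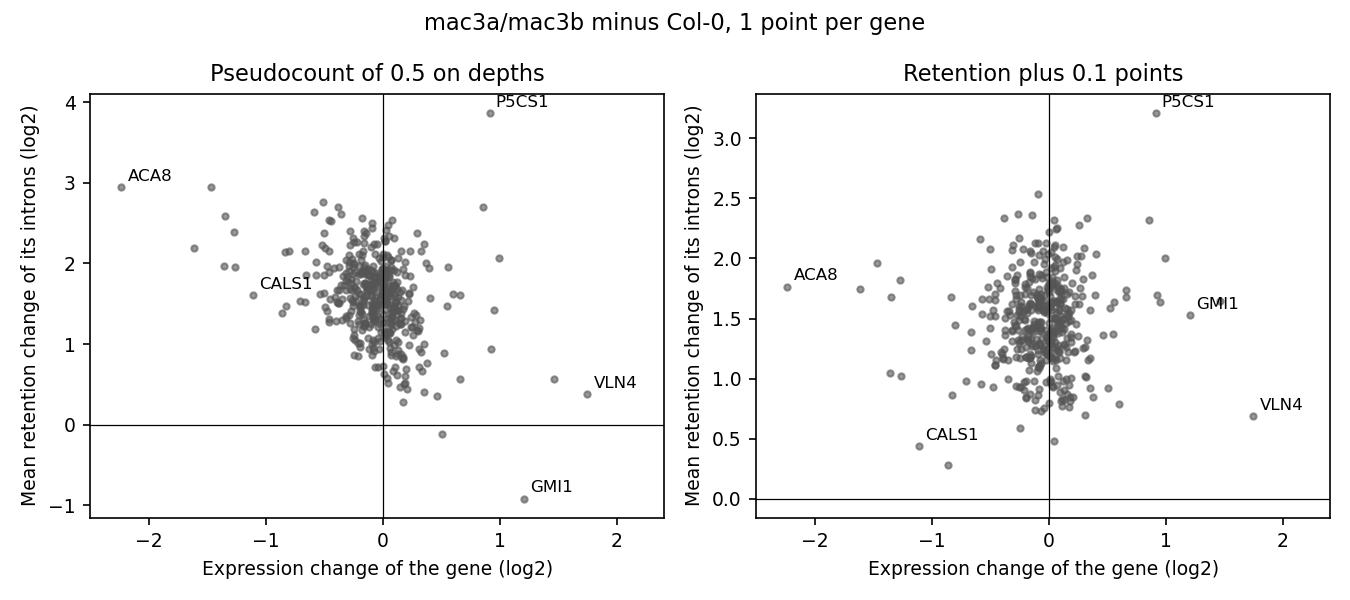
Mean retention change of the introns of a gene (log2) against its expression change (log2), mac3a/mac3b minus Col-0, for 438 genes, with a pseudocount of 0.5 on depths at the left and retention plus 0.1 points at the right. GMI1 lies below 0 and ACA8 near the top at the left, and at the right no gene lies below 0.

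Exon skipping in the same genes was examined as a separate readout of splicing. Over 1440 events in 413 of the genes, reads that skip an exon made up 1.56%, 1.40% and 1.77% in the mutant and 1.46%, 1.37% and 1.33% in Col-0, and the ranges overlapped (exact permutation test, p = 0.2). In genes with 10 to 19 introns they made up 2.104 ± 0.218% in the mutant and 1.80 ± 0.0626% in Col-0 (p = 0.1, exact permutation test), and in all genes outside the set 1.74 ± 0.0930% in the mutant and 1.91 ± 0.362% in Col-0 (p = 0.6). In the set, events with at least 1 skipping read made up 35.4%, 27.4% and 59.7% in the mutant and 26.9%, 23.8% and 28.3% in Col-0, where the ranges overlapped too (exact permutation test, p = 0.2). In genes with 10 to 19 introns such events made up 43.4 ± 15.2% in the mutant and 29.4 ± 0.878% in Col-0 (exact permutation test, p = 0.1). In all genes outside the set they made up 46.0 ± 13.0% in the mutant and 33.5 ± 1.12% in Col-0 (exact permutation test, p = 0.1).

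Splice sites differed little between these introns and others. Of the introns, 10225 (97.0%) could be placed on TAIR10.1, 10075 of them within the coding span and 150 outside it. GTAAGT, the sequence that pairs best with U1 RNA, began 8.24% of them, against 9.01% of all placed introns of this length and depth and 9.57% of those in genes with 1 to 9. GTATGT began 5.58%, against 4.66% of all. Introns started with GT and ended with AG in 98.3%, against 98.2%. CTAAC within the 50 bases before the 3′ splice site, leaving out the last 15, was found in 5.03%, against 4.32%. All motifs were read on the transcribed strand at these places only.

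Along the gene, the 3′ end CAG was found in 64.2% of introns of the 5′ part and 71.9% of the 3′ part, and the thymine content had medians of 42.0% and 39.6%. Introns of the middle part had a median length of 110 bases and those of the 3′ part 99. Placed introns whose mutant mean was 5 points or more above the Col-0 mean (216, called or not) had a median length of 90.5 bases, beside 106 for all placed, and began with GTAAGT in 6.02%. Introns with GTAAGT had a median retention of 0.450 ± 0.0989% in the mutant and 0.0186 ± 0.00306% in Col-0. Those beginning with neither GTAAGT nor GTATGT were at 0.540 ± 0.0895% in the mutant and 0.0366 ± 0.00558% in Col-0. In the 3′ part alone, introns with GTAAGT were at 0.938% in the mutant and 0.0605% in Col-0, above introns of the 5′ part that begin with other sequences, at 0.235% in the mutant and 0.0225% in Col-0.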

How the data were processed

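Groups and replicate numbers come from the sample titles, with 0 samples unassigned. The intron table holds, per the file headers, for each library, a mean read depth over the intron and over the exons beside it, a coverage signal that the authors deposited without a stated scaling; the authors' adjusted p-value is treated as a score and quoted only as theirs. The expression table holds deposited values read as RPKM, since their product with gene length tracked the unique reads per gene, also deposited as counts, to 1% for 97.0% or more of genes. For skipped exons, the authors gave counts of reads that skip and that include the exon. The authors' log2 fold changes were not used. TAIR10, Trimmomatic, Bowtie2 and DESeq2 are named, without versions, in the submitters' processing notes; how introns were counted is not given in the sources used here, so depth over an intron may include reads of overlapping genes (60 introns overlap another annotated gene).

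Retention is 100 × intron depth/(intron + exon depth). The 6 libraries were fitted with limma 3.58.1 in R 4.3.3 on log2((intron depth + 0.5)/(exon depth + 0.5)), over all 94773 introns with a depth of at least 10, with Benjamini-Hochberg adjustment and a threshold of 0.05; the fit was tested on simulated data. Gene means needed 3 introns, positions 3 introns in each of the outer parts, and expression a mean of 1 RPKM. Intron numbers were turned for genes on the minus strand with the RefSeq annotation of TAIR10.1; 23 introns of 1 gene have no strand and no position. Single values were compared by exact permutation over libraries with Python 3 and numpy. The design allowed for counts in introns; the values were depths, so the test for depths was used.

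The introns and gene lists were chosen with earlier results of these data known, and 14 of 87 listed genes were dropped because the annotation does not give that symbol to that gene. Named introns are the 8 largest rises and 4 largest falls among called introns without overlap, 1 per gene. Named genes are the 5 with most introns, up to 4 per list, the 5 largest and 5 smallest gene means (of genes with 10 or more introns) and the 4 largest and 4 smallest position changes; other genes were named after their values were seen. After subtracting the genotype means, same-numbered libraries correlated in expression with r of 0.62, 0.78 and 0.43, so blocked values are given beside expression results.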

Additional observations from a re-analysis of the deposited data

How the results depend on the processing

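The median retention, the comparison in points with genes of fewer introns, the position within genes and the skipping share kept their direction under every alternative run; as a log2 ratio the genotype difference of that comparison was 0.96, of the opposite sign. Without any 1 library the genotype differences were 0.441 to 0.521 points, −1.04 to −0.993 points, 0.788 to 0.889 on the log2 scale and 0.0954 to 0.279 points. Introns called higher numbered 3826 to 4599 and gene means called higher 398 to 415 without 1 library; with 15 or more or with 30 or more introns as the limit, which changes how many introns are counted, 10874 and 1223 introns rose. Introns called lower numbered 4 to 13 without 1 library, 7 with the replicate block, 5 at a depth of at least 20 and 21 with no depth minimum. Gene positions called higher numbered 33 to 47 without 1 library, 5 with a pseudocount of 0.05 and 19 on the scale of retention plus 0.1 points, a scale added after seeing the data. Host genes called for expression numbered 0 without any 1 library and 12 with the block. Intron ratios of same-numbered libraries correlated with r of only 0.0648, 0.124 and 0.0487; the block gave 5039 introns and 419 genes higher and 91 gene positions, and the exact sign-flip test over pairs cannot go below 0.25. Gene means called lower numbered 0 or 1 in all fits, the 1 being GMI1. Gene values that changed sign were none of them called by the test as designed: GMI1 was 0.301 with a pseudocount of 0.05 and 1.53 on the added scale, VIIIB 0.59 and 0.923 on these and −0.338 to 0.112 without 1 library, VLN1 −0.0357 to 0.577 without 1 library and PSD2 0.0354 on the added scale; the cause was not tested. Among single introns and genes, 138 calls were lost and 19 gained over all alternatives, of 1124 compared. Introns of 105 bases with such exon depths carry few or no reads when spliced well, so retention under about 0.1% is not resolved for 1 intron in 1 library.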
